A study of Mus musculus with 6 samples.

Results

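Synj2 and 9 related genes, Synj1, Ocrl, Inpp5a, Inpp5b, Inpp5d, Inpp5e, Inpp5f, Inpp5j and Inpp5k, were examined in mouse hippocampal RNA, 10 genes of the 20620 in the deposited table. They comprise the synaptojanins and other genes named as inositol 5-phosphatases. The family was chosen by the difference of 1 gene: Synj2 was picked because it was higher in the mutant group, with an adjusted p of 0.00141 in the authors' deposited table, where 0.141% of all genes had an adjusted p under 0.05. The difference of Synj2 between the groups is therefore a description, given with no test, while the other 9 genes entered by name.

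RNA came from the hippocampus of 6 male mice on a C57BL/6J background, with 1 library a mouse. The 3 control mice had the genotype Braf Q241R Neo/+ and were 31 to 32 weeks old. The 3 n-Braf mice had the genotype Braf Q241R/+ ;CaMKII-Cre and were 32 to 34 weeks old. Both groups thus carry the mutant allele, the controls with the Neo cassette and the n-Braf mice with a Cre transgene driven by the CaMKII promoter, which acts in excitatory neurons of the forebrain, so effects of Cre, of Neo and of the mutant kinase cannot be told apart. The BRAF kinase acts between RAS and ERK, and the series addresses what its Q241R form does in mature excitatory neurons. Wild-type mice are not analysed here. The libraries held 25227112 to 31832245 counts. Levels are given in CPM, the usual scale of counts relative to library depth. Braf was at 116 to 123 CPM in the controls and at 184 to 205 CPM in n-Braf, and these counts do not separate the mutant from the normal allele. Markers of hippocampal excitatory neurons were present in every library, with Camk2a at 2120 to 2904 CPM and Prox1, a marker of dentate granule neurons, at 79.8 to 148 CPM. Markers of the choroid plexus, the secretory epithelium of the ventricles, stood apart in controls 1 and 2, where 10 genes summed to 2422 and 1358 CPM, against 23.2 to 38.9 CPM in control 3 and the n-Braf libraries.

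Phosphoinositides are membrane lipids whose inositol ring carries phosphates at different positions, and each pattern recruits its own set of proteins to a membrane. Inositol 5-phosphatases remove the phosphate at the fifth position, from the lipids, from soluble inositol phosphates, or from both. At synapses this step lets clathrin and its adaptors leave newly formed vesicles, and in other compartments it sets the identity of endosomes, the Golgi and the primary cilium. INPP5A removes the same phosphate from soluble inositol trisphosphate, the messenger that releases calcium from the endoplasmic reticulum.

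The catalytic domain of the family carries a signature of tryptophan, glycine, aspartate, asparagine and arginine at fixed spacing, which shows which of the 10 genes are alike. A search of the translated protein-coding transcripts of GENCODE M21 found this signature in 8 of the 10 genes. The sequences below are the 48 coding bases around it on the GRCm38 assembly, 5′ to 3′ on the coding strand, and the capitals mark the codons of the 5 signature residues. They are shown for the synaptojanins, for OCRL and its paralog INPP5B, and for INPP5E as a more distant member.
Synj2: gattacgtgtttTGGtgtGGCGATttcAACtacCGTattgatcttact
Synj1: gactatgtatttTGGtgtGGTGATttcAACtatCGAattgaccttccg
Ocrl: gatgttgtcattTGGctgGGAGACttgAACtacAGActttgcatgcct
Inpp5b: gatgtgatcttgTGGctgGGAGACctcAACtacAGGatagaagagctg
Inpp5e: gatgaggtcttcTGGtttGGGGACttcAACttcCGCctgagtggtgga

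The Synj2 window lies at chr17:6022120-6022167 on the plus strand and that of Synj1 at chr16:90963908-90963955 on the minus strand, each within 1 exon. Their encoded residues are identical at 15 of 16 positions, and 39 of the 48 bases are the same. The other 6 genes with the signature share 7 to 9 of the 16 residues with Synj2, and 26 to 30 of the bases. The Inpp5e window is at chr2:26399507-26399554 on the minus strand. Those of Ocrl and Inpp5b each span 2 exons, between positions 47936487 and 47938344 of chromosome X and between 124785359 and 124786563 of chromosome 4. The signature in this exact form was not found in the transcripts of Inpp5a and Inpp5f. INPP5F, also called SAC2, is known as a phosphatase of the SAC type, a domain it shares with both synaptojanins. Despite the likeness of the family, no stretch of 50 bases was shared between transcripts of any pair of the 10 genes on either strand, so reads of that length tell the members apart from each other.

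Synj2 encodes synaptojanin 2, a phosphatase with a SAC and a 5-phosphatase domain that acts on membrane lipids, binds active RAC1 and is drawn to mitochondria by the outer-membrane protein SYNJ2BP. The gene (ENSMUSG00000023805) lies on chromosome 17 at 5941280 to 6044290 on the plus strand. After scaling of the libraries by trimmed means of M values (TMM), Synj2 was at 60.3, 60.7 and 69.6 CPM in the 3 controls whereas the n-Braf libraries had 90.9, 94.2 and 85.5 CPM. The lowest n-Braf library lay above the highest control, so the groups did not overlap, and control 3 was the control closest to n-Braf. Controls averaged 63.5 ± 5.24 CPM and n-Braf mice 90.2 ± 4.40 CPM (SD, n = 3 each). The fold was 1.42, with a log2 fold change of 0.51 (SE 0.08). In such bulk RNA, a change in the number of cells of a type and a change in RNA per cell cannot be told apart.

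Synj1 encodes synaptojanin 1, the abundant presynaptic form that works with endophilin and dynamin in vesicle recycling. Its levels were 446, 500 and 494 CPM in the controls and 554, 536 and 506 CPM in n-Braf. These groups did not overlap either, but n-Braf 3 lay only slightly above control 2. The log2 fold change was 0.15 (SE 0.07, 95% interval -0.013 to 0.31), and in the quasi-likelihood test of edgeR over all genes the adjusted p was 0.771, so Synj1 did not pass. Without control 1, its lowest library, the log2 fold change was 0.097, while it was 0.18 without n-Braf 3 and 0.21 with age as a covariate.

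Read directly as a ratio of counts within each library, which no scaling between libraries can alter, Synj2 stood at 13.5%, 12.1% and 14.1% of the Synj1 count in the controls. In n-Braf it stood at 16.4%, 17.6% and 16.9%. Control ratios averaged 13.2% ± 1.01 and n-Braf ratios 17.0% ± 0.575 (SD, n = 3 each), with no overlap. This ratio contains the Synj2 difference that chose the gene, so it describes the same libraries again.

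**Figure D1:**
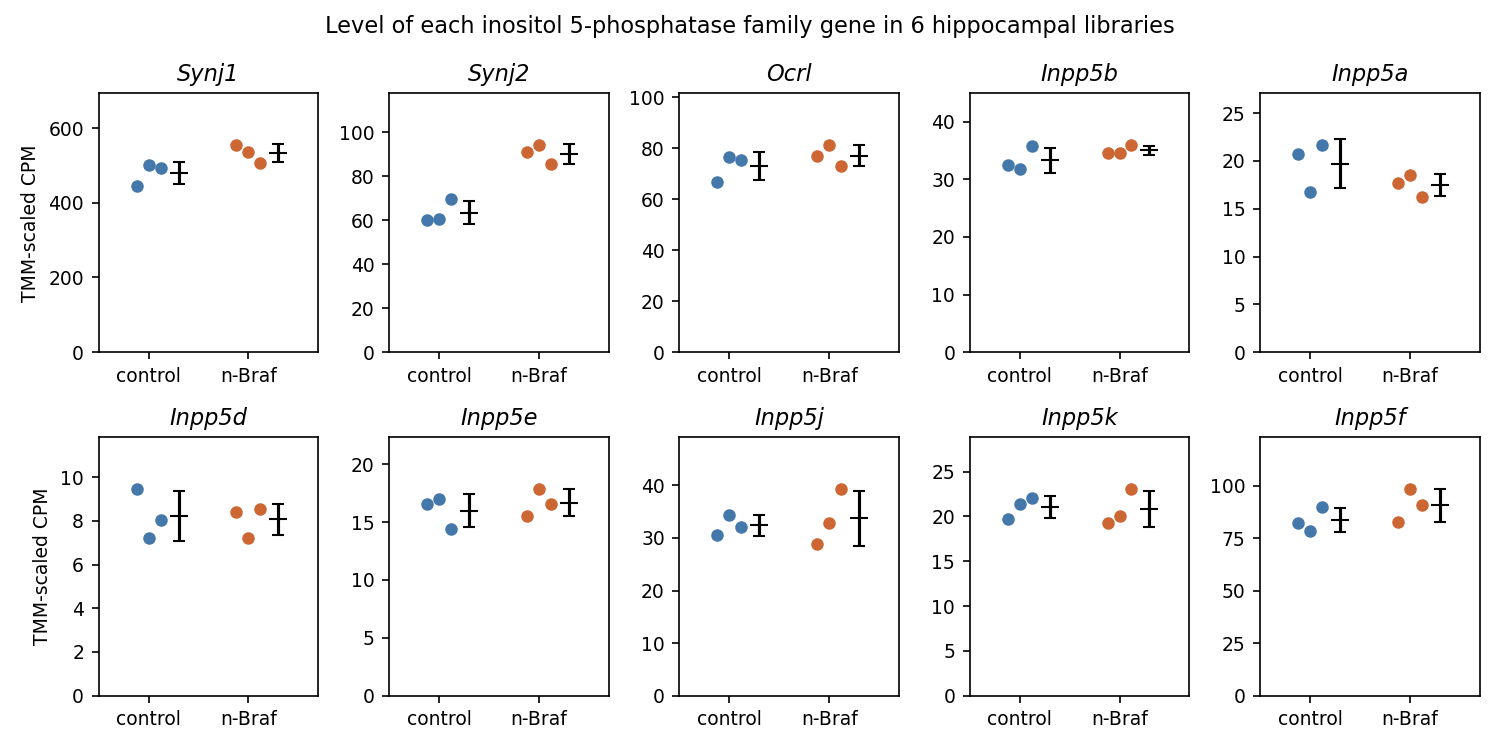
TMM-scaled CPM (y axis, from 0 in each panel) of the 10 genes in the 3 control (blue) and 3 n-Braf (orange) libraries; points are libraries and black bars are mean ± SD. Synj2 lies between 60.3 and 69.6 CPM in the controls and between 85.5 and 94.2 CPM in n-Braf, while the 2 groups overlap in every other panel except Synj1.

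The deposited values are expected counts, estimates that share out reads matching several genes, and for Synj2 they depend on a neighbour. Serac1, a gene on the opposite strand that encodes a protein of phospholipid remodelling where the endoplasmic reticulum meets mitochondria, overlaps 297 exon bases of Synj2, 3.56% of its exon length. The expected counts of Synj2 were 1617.64, 1621.52 and 1787.11 in the controls and 2906.21, 2991.82 and 2509.63 in n-Braf, none of them whole. Those of Serac1 were 482.36, 606.48, 530.89, 695.79, 739.18 and 577.37 in the same order of libraries. In each of the 6 libraries the sum of both genes was a whole number within 0.005, namely 2100, 2228, 2318, 3602, 3731 and 3087. The sums are what sharing of reads between these 2 genes alone would give, and the genes lie on opposite strands although the library kit marks strand.

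Counts were not whole for 5 members, Synj2 among them, and each had such a partner. Inpp5a summed to whole numbers with Nkx6-2, Inpp5e with Pmpca and Inpp5j with Pla2g3, all on opposite strands, and Inpp5f with the pseudogene Gm43580 on its own strand. Among these the shared part was largest for Inpp5e, where 874 exon bases (20.3%) overlap Pmpca. Synj1, Ocrl, Inpp5b, Inpp5d and Inpp5k had whole counts in every library. Adding the overlapping gene to the member, a setting chosen after seeing the data, gave Synj2 with Serac1 84.0 ± 5.99 CPM in the controls and 112 ± 6.21 CPM in n-Braf (SD, n = 3 each; log2 fold change 0.41, SE 0.07). Serac1 alone was at 20.4 CPM in the controls and 21.6 CPM in n-Braf on average (log2 fold change 0.08, SE 0.11, edgeR adjusted p = 0.954).

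**Figure D2:**
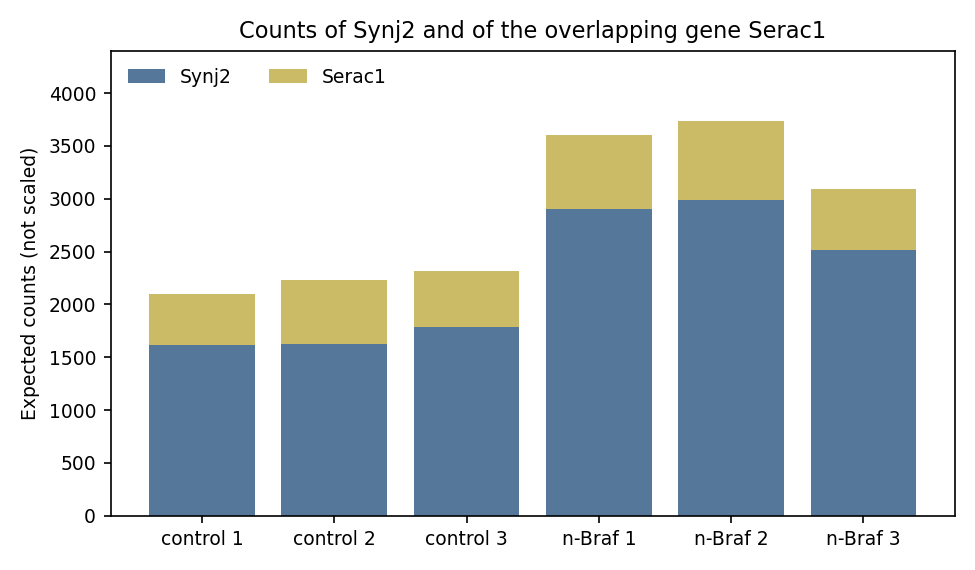
Expected counts, not scaled for depth (y axis), of Synj2 (blue) and Serac1 (yellow) stacked for each of the 6 libraries. The stacks are whole numbers from 2100 to 2318 in the controls and from 3087 to 3731 in the n-Braf libraries, which were also sequenced more deeply.

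Some cell type markers differed between the same libraries. Over all genes tested, 49.0% were higher in n-Braf. Of 10 choroid plexus markers 10 were lower in n-Braf, with sums of 37.5 to 2422 CPM in the controls and 23.2 to 38.9 CPM in n-Braf. Of 7 ependymal markers 7 were lower, with sums of 17.9 to 33.7 CPM against 8.31 to 12.0 CPM. Neocortical markers, from tissue next to the hippocampus, had 9 of 10 higher and sums of 233 to 347 CPM against 276 to 390 CPM. Interneuron markers also had 9 of 10 higher, with sums of 535, 579 and 619 CPM in the controls and 614, 621 and 604 CPM in n-Braf. In the interneuron and neocortical sums alike, control 3 was the highest control and n-Braf 3 the lowest n-Braf library, as for Synj2. Controls 1 and 2 were nearly level in Synj2, at 60.3 and 60.7 CPM, so their order is not compared. In both sums control 3 lay above n-Braf 1 and n-Braf 3, unlike in Synj2. A mean over genes of the deviation of log2 CPM from each gene's own mean gave another order. By this mean control 3 lay below n-Braf 1 in both lists (interneurons 0.023 against 0.072, neocortex 0.13 against 0.29). It stayed above n-Braf 3 in both. Astrocyte markers had 8 of 10 higher, with sums of 4554 to 4859 CPM against 5123 to 5235 CPM that did not overlap. Most of these sums was Slc1a2, at 3282 CPM in the controls and 3661 CPM in n-Braf on average. By the mean deviation of log2 CPM the groups overlapped, with control 3 at 0.026 against 0.00055 in n-Braf 1 and 0.023 in n-Braf 2. Oligodendrocyte markers had 12 of 12 lower, with sums of 1735 to 2248 CPM against 1472 to 2013 CPM. Excitatory neuron markers had 8 of 10 higher, with overlapping sums of 4430 to 4767 CPM against 4321 to 5758 CPM. No tested marker of these lists was at 0 in any library, and the part of these cell types in the Synj2 difference was not tested. Set against control 3 alone, without the pair of controls high in choroid plexus markers, Synj2 had a log2 fold change of 0.37 (SE 0.11), in a fit that takes the lone control to vary like the n-Braf libraries.

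None of the 10 genes passed the quasi-likelihood test of edgeR at an adjusted p of 0.05, where 0% of 20604 genes tested were called. DESeq2 called 0.425% of the genes it adjusted and 1 member, Synj2, on the same difference it was chosen for, so nothing is read from that call. For the other 9 genes DESeq2 gave adjusted p-values of 0.831 to 0.999 and limma-voom of 0.802 to 0.990. At an unadjusted p of 0.05 the quasi-likelihood test placed 0 of the other 9 higher and 0 lower, against 3.09% of all genes higher and 3.73% lower. The groups did not overlap in 1 of the 9, Synj1, which was higher, while over all genes 6.09% were higher and 5.44% lower without overlap. The median log2 fold change of the 9 was 0.06, with 6 higher and 3 lower. That of all genes was -0.0042, with 49.0% higher.

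**Figure D3:**
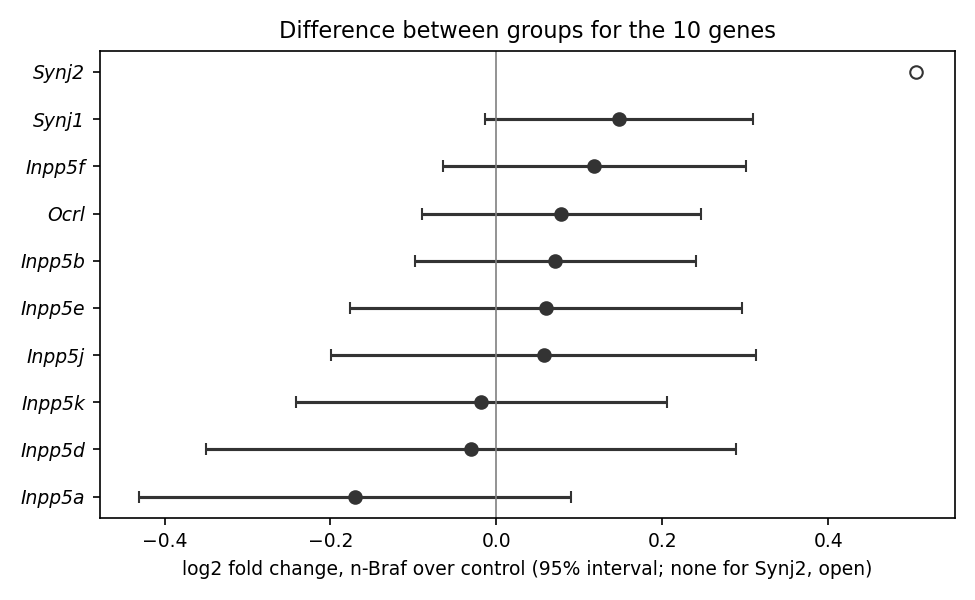
log2 fold change of n-Braf over control (x axis) for the 10 genes, with 95% intervals from the fit over all genes for the 9 that were not chosen by this difference. Each of these 9 intervals includes 0, and Synj2, the open point at 0.51, is drawn without one.

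Ocrl and Inpp5b encode paralogs of the endosomes and the Golgi, and mutations of the human OCRL gene cause Lowe syndrome. Ocrl (chromosome X, 47912387 to 47965868) was at 66.8, 76.8 and 75.6 CPM in the controls and at 77.0, 81.3 and 73.2 CPM in n-Braf. The lowest n-Braf library lay below 2 of the controls, and control 1 stood lowest. The log2 fold change was 0.08 (SE 0.07, 95% interval -0.090 to 0.25), and it was 0.017 without control 1 and 0.039 without n-Braf 2. It was 0.12 without control 2, 0.11 without n-Braf 3 and 0.18 with age as a covariate. Inpp5b (chromosome 4, 124741850 to 124801511) was at 32.5, 31.7 and 35.8 CPM in the controls and at 34.5, 34.6 and 35.9 CPM in n-Braf, with a log2 fold change of 0.07 (SE 0.07, 95% interval -0.098 to 0.24). Its n-Braf libraries spread the least of any member, with a coefficient of variation of 2.26%. Without control 2 or control 3 the log2 fold change of Inpp5b was 0.037 or 0.13.

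Inpp5a encodes the enzyme that ends the inositol trisphosphate signal, and it was the member with the lowest log2 fold change, at -0.17 (SE 0.12, 95% interval -0.43 to 0.090, edgeR adjusted p = 0.850). Its levels were 20.7, 16.8 and 21.6 CPM in the controls and 17.7, 18.6 and 16.2 CPM in n-Braf. Control 2 fell among the n-Braf libraries, so the groups overlapped. The gene lies on chromosome 7 at 139389109 to 139579652. Its log2 fold change was -0.27 without control 2, -0.098 without control 3 and -0.0044 with age as a covariate.

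Inpp5e encodes the phosphatase of the primary cilium, whose human gene is mutated in Joubert syndrome. It was at 16.6, 17.0 and 14.4 CPM in the controls and at 15.5, 17.9 and 16.6 CPM in n-Braf (log2 fold change 0.06, SE 0.10). The groups overlapped throughout, and the shared reads with Pmpca add an uncertainty that these values do not show. Inpp5j encodes a proline-rich 5-phosphatase. It was at 30.6, 34.4 and 32.2 CPM in the controls and at 28.9, 32.8 and 39.4 CPM in n-Braf. The n-Braf libraries held both its lowest and its highest level, with a coefficient of variation of 15.7%, the widest of any member in either group. In n-Braf 3, where Inpp5j was highest, the summed excitatory neuron markers were also at their highest, 5758 CPM against 4321 to 4767 CPM in the other 5 libraries. Among those other 5, control 2 had the highest sum and the highest Inpp5j level. Inpp5j was lowest in n-Braf 1, where the sum was 4763 CPM, while n-Braf 2 had the lowest sum and 32.8 CPM of Inpp5j. The part of excitatory neurons in the Inpp5j level was not tested.

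Inpp5k encodes a 5-phosphatase of the endoplasmic reticulum. Its levels of 19.7, 21.4 and 22.0 CPM in the controls and 19.3, 20.01 and 23.1 CPM in n-Braf overlapped, with a log2 fold change of -0.018 (SE 0.10, 95% interval -0.24 to 0.21). Inpp5d encodes SHIP1, which in the brain is a gene of microglia. It was the least abundant member, at 9.47, 7.22 and 8.02 CPM in the controls and 8.42, 7.24 and 8.55 CPM in n-Braf, with a log2 fold change of -0.030 (SE 0.14). Microglial markers overlapped as well, with 6 of 12 higher and sums of 180 to 224 CPM against 156 to 208 CPM. n-Braf 2 had the lowest microglial sum, at 156 CPM, and Inpp5d near its lowest level. Control 2, with a sum of 183 CPM, had the lowest Inpp5d level. n-Braf 1 and n-Braf 3, with sums of 206 and 208 CPM, were among the higher libraries in Inpp5d too. Control 1 had the second lowest sum, at 180 CPM, but the highest Inpp5d level, and control 3 had the highest sum with 8.02 CPM of Inpp5d. The part of microglia in the Inpp5d level was not tested.

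Inpp5f, the SAC phosphatase, lies on chromosome 7 at 128611328 to 128696425. It was at 82.5, 78.8 and 89.9 CPM in the controls and at 83.0, 98.7 and 90.9 CPM in n-Braf. n-Braf 2 was the highest library, and n-Braf 1 lay below control 3. The log2 fold change was 0.12 (SE 0.08, 95% interval -0.065 to 0.30), and the edgeR adjusted p was 0.856. The log2 fold change was 0.054 without n-Braf 2 and 0.076 without control 2. It was 0.18 without n-Braf 1, 0.17 without control 3 and 0.23 with age as a covariate.

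To compare the genes with each other, CPM was divided by the kilobases of annotated exon, since longer transcripts give more reads. On this scale Synj1 was the highest member in every library, with control libraries at 59.4 ± 3.67 CPM per kilobase and n-Braf libraries at 65.8 ± 2.99 (SD, n = 3 each), 5.97-fold above the next gene on average. It made up 52.7% to 56.3% of the summed level of the 10 genes. Divided by the longest transcript instead, Synj1 averaged 71.4 and Inpp5f 18.4 CPM per kilobase, so both this share and the lead were smaller. By annotated exon, Inpp5f (9.46 to 11.9), Synj2 (7.23 to 11.3), Ocrl (7.05 to 8.57), Inpp5b (6.81 to 7.71) and Inpp5j (5.68 to 7.73 CPM per kilobase) followed Synj1, and neighbours in this order overlapped. Synj2 overlapped Ocrl through its control libraries, at 7.23 to 8.34, while its n-Braf libraries, at 10.2 to 11.3, lay above every Ocrl library. This separation rests on the difference Synj2 was chosen for, and n-Braf 3 fell within the Ocrl range when the longest transcript was used as length.

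All libraries of Inpp5j lay above those of Inpp5e, Inpp5k and Inpp5a, which reached 2.87 to 4.16 CPM per kilobase and overlapped each other. Inpp5d was lowest at 0.949 to 1.25, below every library of Inpp5a. Dividing by the longest transcript instead left Synj1 first, Inpp5f second and Inpp5d last on average, but put Ocrl (14.3) above Synj2 (13.6), Inpp5j (9.62) above Inpp5b (8.91), and both Inpp5a (6.59) and Inpp5k (6.19) above Inpp5e (3.94 CPM per kilobase), so the order of those neighbours depends on the length used.

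**Figure D4:**
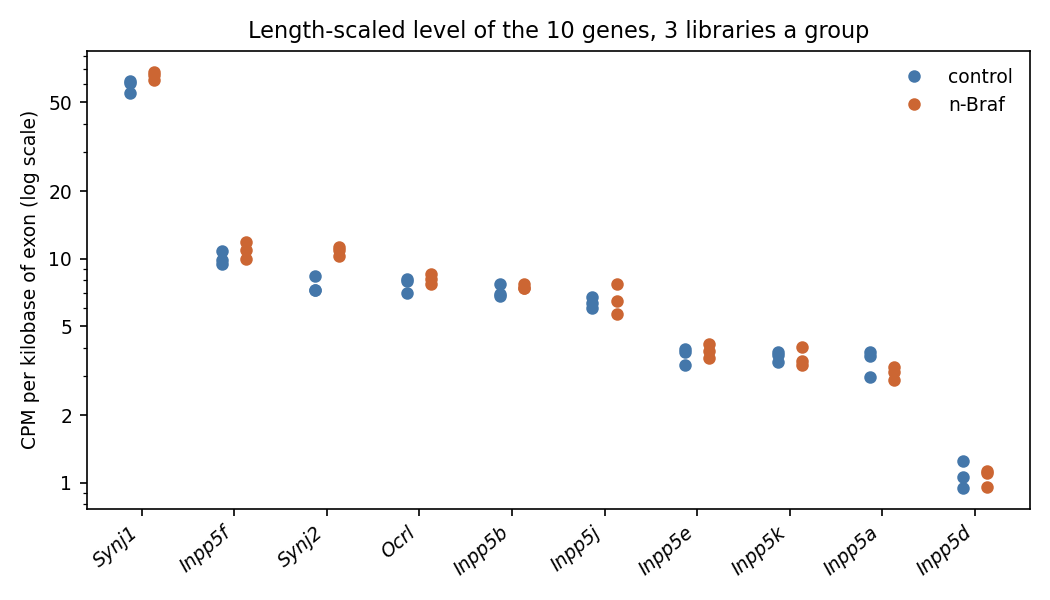
CPM per kilobase of annotated exon (y axis, log scale) of the 10 genes in order of their mean, with 1 point for each control (blue) and n-Braf (orange) library. Synj1 stands alone at 55.2 to 68.5, the genes from Inpp5f to Inpp5j lie between 5.68 and 11.9, those from Inpp5e to Inpp5a between 2.87 and 4.16, and Inpp5d at 0.949 to 1.25.

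Other genes of the pathway were taken from 6 lists with 115 genes tested. In the quasi-likelihood test of edgeR 0 of the 115 passed at an adjusted p of 0.05, limma-voom called 0, and DESeq2 called 2, Itpka and Ap2b1, against 0.425% of all genes. At an unadjusted p of 0.05 there were 14 higher and 3 lower, against 3.09% and 3.73% of all genes. The groups did not overlap in 20 higher and 6 lower, against 6.09% and 5.44% of all genes. The median log2 fold change of the 115 was 0.02, with 69 higher, while 49.0% of all genes were higher. The genes named here, apart from Synj2bp, had the smallest unadjusted p in their list, and none passed the quasi-likelihood test.

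Of the kinases that make phosphoinositides, 12 of 23 were higher and 11 lower (median log2 fold change 0.0059). Pip5k1c, which produces the lipid that synaptojanins degrade at synapses, was at 254 ± 1.52 CPM in the controls and 286 ± 14.5 CPM in n-Braf (SD, n = 3 each). Pi4ka, which makes the precursor of that lipid at the plasma membrane, was at 245 ± 7.18 against 275 ± 2.22 CPM, and Pip4k2c had a log2 fold change of 0.20 (SE 0.07). In each of these 3 genes, named for their small p, the n-Braf libraries lay above the controls. Of the 23 kinases 5 were higher and 1 lower without overlap, against 6.09% and 5.44% of all genes.

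Of the other phosphoinositide phosphatases 11 of 17 were higher (median 0.05). Without overlap 3 of the 17 were higher and 0 lower, against 6.09% and 5.44% of all genes. Inpp4a, which removes the phosphate at the fourth position after a 5-phosphatase has acted, was at 144 ± 1.46 CPM in the controls and 169 ± 5.61 CPM in n-Braf (log2 fold change 0.23, SE 0.06, edgeR adjusted p = 0.543), without overlap. Mtmr9, a myotubularin without catalytic activity, and Mtmr4, an endosomal phosphatase, were both at 0.15 (SE 0.06 and 0.09). Mtmr4 was at 0.055 without n-Braf 2 and at 0.22 without n-Braf 1.

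For phospholipase C, which splits the same lipid into inositol trisphosphate and diacylglycerol, 6 of 14 were higher and 8 lower (median -0.043). Plch2 was at 84.2 ± 6.56 CPM in the controls and 106 ± 10.7 CPM in n-Braf, Plcl2, a relative without catalytic activity, a log2 fold change of 0.28 (SE 0.09), and Plcb2, with a mean of 2.01 CPM, one of 0.47 (SE 0.23). Among enzymes of inositol phosphates and the receptors of inositol trisphosphate, 11 of 18 were higher (median 0.07). Itpka, a neuronal kinase that, like INPP5A, uses up inositol trisphosphate, was at 83.4 ± 6.82 CPM in the controls and 105 ± 4.25 CPM in n-Braf (log2 fold change 0.33, SE 0.07; adjusted p = 0.527 in edgeR and 0.0436 in DESeq2). Itpr1, the main neuronal receptor of that messenger, was at 570 ± 19.0 against 681 ± 62.1 CPM. Isyna1, the enzyme that makes inositol, was lower, with a log2 fold change of -0.32 (SE 0.14) that was -0.19 without control 1 and -0.39 without control 2.

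Genes of clathrin-dependent endocytosis, among them the partners of synaptojanins, had a median log2 fold change of 0.08. Of these genes 24 of 31 were higher, against 49.0% of all genes. Without overlap 6 were higher and 1 lower, against 6.09% and 5.44% of all genes. Ap2b1, a subunit of the clathrin adaptor at the plasma membrane, was at 280 ± 8.76 CPM in the controls and 336 ± 8.65 CPM in n-Braf (log2 fold change 0.26, SE 0.06; adjusted p = 0.527 in edgeR and 0.0370 in DESeq2). Pacsin1, a membrane-bending protein, and Ap2a2, another adaptor subunit, were each at 0.16 (SE 0.06 and 0.06), without overlap between the groups. Synj2bp, which anchors synaptojanin 2 at mitochondria, had a log2 fold change of 0.02 (SE 0.07, edgeR adjusted p = 0.989). In the list of genes linked to OCRL and INPP5E, 5 of 12 were higher and 7 lower (median -0.039). Appl2, an endosomal adaptor, was at 89.9 ± 4.63 CPM in the controls and 80.3 ± 2.40 CPM in n-Braf, and Rab8a and the ciliary gene Cep164 were at -0.12 and -0.085. Cep164 was at -0.027 without n-Braf 1 and at -0.15 without n-Braf 2.

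**Figure D5:**
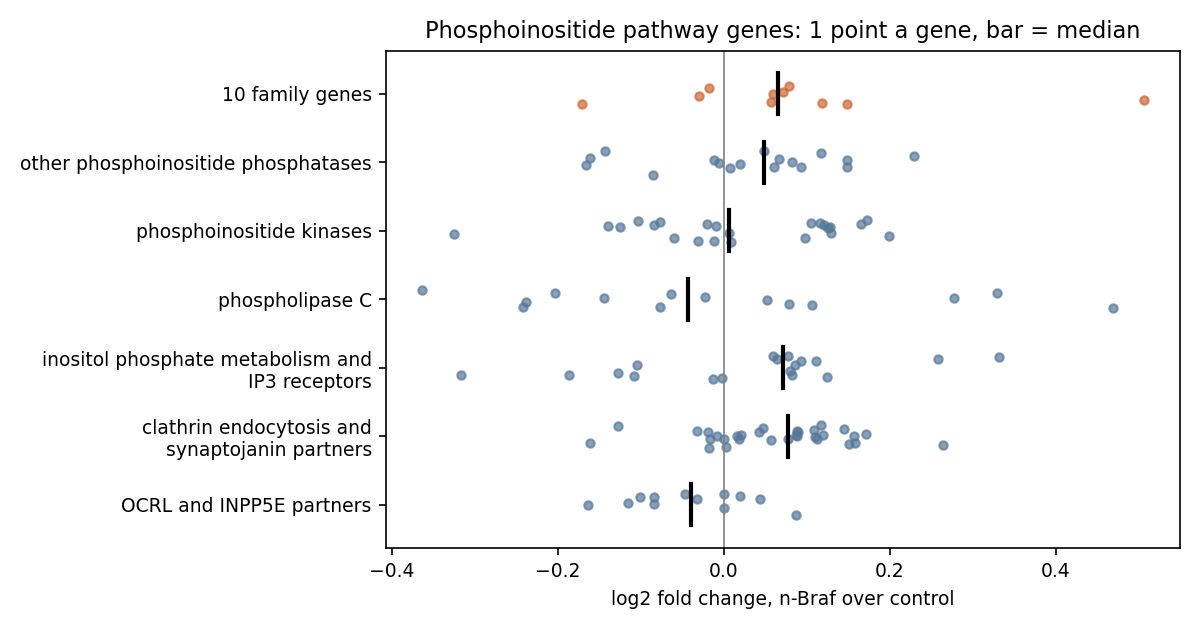
log2 fold change of n-Braf over control (x axis) for the 10 family genes (orange) and the genes of the 6 pathway lists (blue), with 1 point a gene and a black bar at each median. The medians lie between -0.043 and 0.08, and the point at 0.51 in the top row is Synj2.

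The 5 genes whose log2 CPM followed Synj2 most closely over the 6 libraries, among 10775 named genes with a mean of at least 5 CPM, were Fmn2 (Pearson r 0.995), Gba2 (0.987), Ttc39b (0.986), Rprml (0.984) and Ptpn5 (0.982). Their Spearman rho lay between 0.886 and 1, and 32 genes had a rho of 1. Part of this likeness is the step between the 2 groups, which Synj2 was chosen for, so the values describe these libraries only. Fmn2, which encodes an actin-nucleating formin of neurons, was at 109 ± 3.11 CPM in the controls and 125 ± 1.32 CPM in n-Braf (SD, n = 3 each). Gba2, an enzyme of glucosylceramide breakdown, had a log2 fold change of 0.10 (SE 0.06), so a close likeness in shape went with a much smaller difference than that of Synj2. Ptpn5 encodes a neuronal tyrosine phosphatase that acts on ERK, and was at 69.9 ± 4.89 against 89.7 ± 6.48 CPM. Among the members, the likeness to Synj2 was highest for Synj1 (r = 0.824), followed by Inpp5b (0.674), Inpp5f (0.668) and Ocrl (0.597), and lowest for Inpp5a (-0.348).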

How the data were processed

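Per the submitters' processing notes, reads were processed with bcl2fastq 2.20, fastp 0.20.1, STAR, RSEM and edgeR 3.36.0 on build mm10, after preparation with a stranded SMART-Seq kit from 10.0 ng of total RNA per the labels' protocols. Strand setting and annotation release: not given in the sources used here. Deposited were the authors' expected counts for each gene, and beside them the authors' log2 fold change, mean log2 CPM, p-value and adjusted p-value.

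Expected counts were rounded. filterByExpr of edgeR 4.0.16 (R 4.3.3, minimum count 10) kept 20604 of 20620 genes. Libraries were scaled by TMM and each gene tested by edgeR's quasi-likelihood test on all 6 libraries, with a single term for group and Benjamini-Hochberg adjustment over all genes tested (threshold 0.05). SE is the log2 fold change divided by the square root of F, without sign, and 95% intervals use the test's degrees of freedom. log2 CPM for likeness used a prior count of 2. Labels number each mouse separately, so replicates are animals. Every pair of libraries differed beyond counting noise (chi-square per degree of freedom 8.99 to 70.7). The fit was tested on simulated data.

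Coordinates, exon lengths and transcript sequences are from GENCODE M21 (GRCm38, the assembly of mm10), matched by gene identifier for all 10 genes.

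The members and gene lists were chosen with earlier results of these data known. All members were named. In each pathway list genes past the threshold were to be named, otherwise up to 3 with the smallest unadjusted p, and for likeness the 5 named genes with the highest Pearson r. Serac1, Synj2bp and the other overlapping genes were named after their values were seen. Alternatives (limma-voom 3.58.1, DESeq2 1.42.0, other scalings, filters, a replicate block, age, left-out libraries, summed overlapping genes) are described at the end.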

Additional observations from a re-analysis of the deposited data

How the results depend on the processing

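Synj2 was higher in n-Braf under all 16 alternatives that gave it a value. Its log2 fold change ran from 0.37 against control 3 alone to 0.64 with age as a covariate. It was 0.47 to 0.58 when single libraries were left out, and 0.51 with the replicate block. Synj2 was chosen for this difference in these same libraries, so neither these values nor its calls below are support for it. The quasi-likelihood test called 0 genes, 0 members and 0 of the other pathway genes. DESeq2 called 79 genes, 1 member (Synj2) and 2 pathway genes. Leaving out control 3 keeps only the controls high in choroid plexus markers, so there group and choroid plexus content cannot be told apart. Without single libraries 0 to 82 genes and 0 to 1 members were called, the calls arising without control 3, where the member was Synj2. Without controls 1 and 2 there were 3 genes, and at an adjusted p of 0.1 there were 2. The replicate block called 0 genes and changed no call. Across genes, the deviations of libraries of the same number had r of 0.15, -0.058 and -0.011. The highest r was 0.23, between control 2 and n-Braf 3, so not every library correlated best with its own number. With 3 libraries a group, these values cannot decide whether libraries of the same number share more than the number. Log2 fold changes near 0 turned sign: Inpp5d ran from -0.12 to 0.081, Inpp5e from -0.011 to 0.11, Inpp5k from -0.10 to 0.031 and Inpp5j from -0.072 to 0.15 when single libraries were left out. Inpp5j was at -0.085 with age as a covariate, and Inpp5b at -0.032 and Inpp5d at 0.0081 without controls 1 and 2. The cause was not tested. For the other 9 members the 95% intervals, not the counts, which were 193 or more in every library, limit what can be said.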
